A study of Mus musculus with 8 samples.

Results

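The 10 genes described here encode the core of mechanistic target of rapamycin complex 1 (mTORC1), its switch, its inhibitors and its substrate 4E-BP1. They were chosen by name, with earlier results of these data known. They are Mtor, Rptor, Tsc1, Tsc2, Rheb, Deptor, Ddit4, Sesn1, Sesn2 and Eif4ebp1. All 10 stood in the table of 24344 gene symbols, on 1 row each, and all 10 passed the filter of 1 FPKM (fragment counts scaled to transcript length and library size) in at least 4 libraries. The libraries were made from homogenised occipital cortex, the rear of the neocortex that includes visual areas. All mice were C57BL/6J and 35 days old (P35). The groups were 4 libraries from mice fasted for 48 h and 4 from mice fed ad libitum, with no genetic change or drug named in the labels. Nothing in the labels says whether each library came from a separate mouse, so the p-values measure the spread between these libraries.

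mTORC1 is a protein kinase complex that promotes protein synthesis and growth and holds back autophagy when amino acids, energy and growth factors are plentiful. The small GTPase Rheb switches the kinase on at the lysosome, and the tuberous sclerosis complex of TSC1 and TSC2 switches Rheb off. Stress reaches the pathway partly through transcription, since REDD1 (from Ddit4) and the sestrins are induced by glucocorticoids, hypoxia, DNA damage or lack of nutrients and dampen mTORC1. In neurons the pathway is known for its part in synaptic plasticity and cell size. RNA levels give no measure of kinase activity, which depends on phosphorylation.

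Fasted cortex had more transcript of 3 stress inhibitors and of Tsc1, less of Rheb and Eif4ebp1, and no called change in Mtor, Rptor, Tsc2 or Deptor. Of the 10 genes 4 rose and 2 fell (limma, Benjamini-Hochberg adjusted p under 0.05 over all 12377 tested genes). Over all tested genes 25.8% were called, 9.56% higher and 16.3% lower in fasted cortex. In the same 6 genes the ranges of the 2 groups were apart, against 27.6% of all tested genes. As the genes were chosen with earlier results known, these shares are given as description and not as a test. The median log2 change of the 10 genes was 0.06 and that of all tested genes -0.02. Changes are differences in log2(FPKM + 1), which understate the change of low genes. The split over all genes was 1183 higher and 2015 lower, and it was 1753 and 1936 with median-ratio scaling, 1792 and 1909 with quantile scaling and 1585 and 534 with equal-sum scaling.

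The libraries were estimated at 17100000 to 21600000 fragments, from the spacing of low values in genes with 1 transcript. Odd-numbered libraries carried Y-linked transcripts and even-numbered ones Xist, while ad libitum replicate 3 carried both (Xist at 32.2 FPKM, Ddx3y at 5.67). Without that library the same calls stood for all 10 genes. Excitatory cortical markers summed to 1076 to 1261 FPKM in fed and 1138 to 1306 in fasted libraries, and no cell type marker found in the table was at 0 in all libraries. Of the 8 excitatory markers 4 were called lower, as were 3 of 6 astrocyte markers. The astrocyte sums overlapped, at 453 to 525 FPKM in fed and 473 to 528 in fasted libraries. Of 6 inhibitory neuron markers 0 were called, and of 6 oligodendrocyte markers 1 was called higher and 0 lower. Of 3 tested markers each, 1 was called lower for meninges and choroid plexus and 0 were called for red blood cells. Microglial markers were lower in 4 of 7 cases, with sums of 85.1 to 115.1 FPKM in fed and 74.0 to 84.0 in fasted libraries. Those of oligodendrocyte precursors were lower in 2 of 4 cases (32.3 to 35.9 against 27.1 to 30.9) and of endothelial and mural cells in 1 of 7 (48.0 to 55.0 against 40.0 to 46.8). Markers of hippocampus, thalamus and striatum summed to 55.8 to 68.6 FPKM in fed and 77.8 to 99.0 in fasted libraries. Of the 5 tested 1 was called higher, Ppp1r1b. Most of that sum was Ppp1r1b (means of 29.2 in fed and 46.1 FPKM in fasted) and Wfs1 (28.1 and 35.2). Prox1, Tcf7l2, Drd1 and Drd2 had means of 0.459 to 2.37 FPKM in fed and 0.488 to 2.66 in fasted libraries. The part of all the markers above in the results below was not tested. In homogenates, fewer cells of a type and less RNA per cell cannot be told apart.

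**Figure D1:**
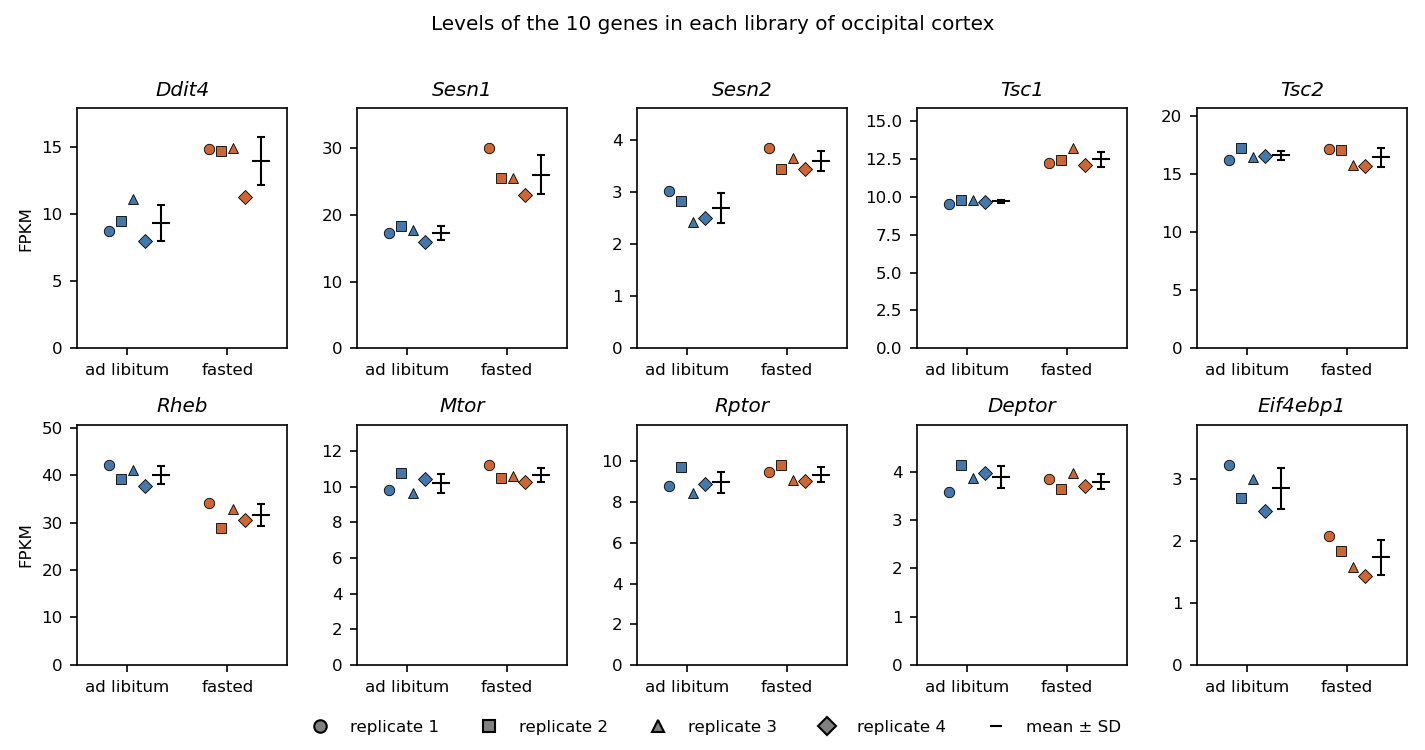
FPKM of the 10 genes in each of the 8 libraries, by group (x axis) with 1 symbol per replicate number, and the mean ± SD of 4 libraries as a bar. Ddit4, Sesn1, Sesn2 and Tsc1 lay higher in every fasted library than in any fed one, Rheb and Eif4ebp1 lower, and the other 4 genes overlapped.

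The promoter windows of 3 of the genes that changed are shown because they hold one of the response elements searched for. They run from 250 bases before the RefSeq transcription start to 50 bases from it, on GRCm38.p6. Capitals mark the match: the hypoxia core ACGTG in Ddit4 (chr10:59951721-59952020, minus strand) and in Rheb (chr5:24842312-24842611, minus strand), and the FoxO core GTAAACA, read from the opposite strand, in Sesn1 (chr10:41810324-41810623, plus strand, the first of its 2 starts).
Ddit4: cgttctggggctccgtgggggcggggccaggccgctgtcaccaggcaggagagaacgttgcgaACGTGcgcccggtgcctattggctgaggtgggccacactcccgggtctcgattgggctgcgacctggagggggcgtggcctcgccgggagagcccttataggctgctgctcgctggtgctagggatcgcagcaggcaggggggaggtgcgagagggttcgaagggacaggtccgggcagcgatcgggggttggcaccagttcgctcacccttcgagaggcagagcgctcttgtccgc
Rheb: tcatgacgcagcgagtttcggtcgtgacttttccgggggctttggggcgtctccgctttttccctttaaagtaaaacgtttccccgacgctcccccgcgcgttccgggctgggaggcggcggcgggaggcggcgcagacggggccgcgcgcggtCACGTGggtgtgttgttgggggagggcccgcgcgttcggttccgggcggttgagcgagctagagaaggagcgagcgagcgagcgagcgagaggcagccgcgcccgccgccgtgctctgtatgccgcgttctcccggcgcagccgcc
Sesn1: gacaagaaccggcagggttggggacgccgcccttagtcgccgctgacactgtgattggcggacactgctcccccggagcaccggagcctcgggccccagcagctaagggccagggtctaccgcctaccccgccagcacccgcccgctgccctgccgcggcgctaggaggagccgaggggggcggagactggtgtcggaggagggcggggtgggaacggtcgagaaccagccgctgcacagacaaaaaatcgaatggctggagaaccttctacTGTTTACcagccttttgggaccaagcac
The match in Ddit4 began 187 bases before the start. In Rheb the letters CACGTG hold the hypoxia core on both strands, overlapping, at 96 and 95 bases before it. In Sesn1 the match began 22 bases after the start. Over 9 windows of 8 of the genes, the only other match was ACGTG in Rptor, 34 bases before its start. The palindromic glucocorticoid response element, its shorter form TGTTCT, the ATF4 element TGATGNAA and the CRE TGACGTCA were searched on both strands too and had no match in these windows. Of all 32851 windows of this length in the table, 19.6% hold ACGTG, 3.65% GTAAACA, 0.00913% the palindromic element, 18.97% TGTTCT, 3.97% TGATGNAA and 1.79% TGACGTCA. The same hypoxia letters thus stood in 1 gene that rose, 1 that fell and 1 that was not called. A match is a description of the letters and not of binding.

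Ddit4 lies on chromosome 10 at 59949669 to 59951834 (GRCm38, minus strand) and encodes REDD1, which releases TSC2 from its inhibition by growth factor signalling. In replicates 1 to 4 its level was 8.72, 9.51, 11.1 and 8.02 FPKM in fed cortex and 14.9, 14.7, 14.9 and 11.3 FPKM in fasted cortex. The highest fed library, replicate 3, and the lowest fasted one, replicate 4, lay next to each other without overlap, while the other 3 fasted libraries lay close together. The mean went from 9.34 ± 1.33 (SD, n = 4) to 13.9 ± 1.79 FPKM (SD, n = 4), a rise of 49.2%. The log2 change was 0.53 (SE 0.104, 95% interval 0.30 to 0.76, limma adjusted p = 0.00418). On its transcript of 1755 bases these levels stood for an estimated 269 to 565 fragments.

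Its paralogue Ddit4l encodes REDD2, which also inhibits mTORC1. Ddit4l stood at 17.0, 14.7, 12.7 and 10.5 FPKM in fed and 12.1, 9.54, 10.5 and 11.7 FPKM in fasted libraries. These ranges overlapped, and its log2 change of -0.28 (95% interval -0.55 to -0.02) was not called (limma adjusted p = 0.105), though it was without ad libitum replicate 4 (limma adjusted p = 0.0109). Of the summed FPKM of the pair, Ddit4 made up 33.9% to 46.7% in fed and 49.0% to 60.6% in fasted libraries. The sum itself was 18.6 to 25.7 FPKM in fed and 23.0 to 27.0 FPKM in fasted libraries and overlapped.

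Sesn1 lies on chromosome 10 at 41809935 to 41908424 (plus strand) and encodes sestrin 1, a stress-induced protein that acts on the GATOR complexes upstream of mTORC1 and is known as a target of p53 and FoxO factors. It stood at 17.2, 18.4, 17.7 and 15.96 FPKM in fed and at 29.9, 25.5, 25.6 and 22.9 FPKM in fasted cortex. Every fasted library was above every fed one, with fasted replicate 1 the highest. The mean went from 17.3 ± 1.03 (SD, n = 4) to 26.0 ± 2.89 FPKM (SD, n = 4), a rise of 50.04%. Its log2 change of 0.55 (SE 0.0757, 95% interval 0.39 to 0.72, limma adjusted p = 0.000644) was above that of 99.1% of tested genes.

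Sesn2 lies on chromosome 4 at 132492032 to 132510501 (minus strand) and encodes sestrin 2, a leucine sensor that binds GATOR2. It stood at 3.03, 2.83, 2.43 and 2.51 FPKM in fed and 3.84, 3.46, 3.66 and 3.44 FPKM in fasted cortex. The groups did not overlap, and the rise of 33.3% came from a level far under that of Sesn1. Its log2 change was 0.32 (SE 0.0695, 95% interval 0.16 to 0.47, limma adjusted p = 0.0075), at an estimated 156 to 275 fragments per library on its transcript of 3475 bases.

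The third sestrin gene, Sesn3, is known as a FoxO target. It stood at 10.6, 13.4, 12.8 and 16.2 FPKM in fed and 13.0, 15.3, 17.3 and 17.8 FPKM in fasted cortex, so that the groups overlapped while the fasted library was higher in each of the 4 same-numbered pairs. Its log2 change of 0.24 was not called (limma adjusted p = 0.15) and was called in a fit with replicate number as a block, hereafter the blocked fit (limma adjusted p = 0.00626), and also without ad libitum replicate 4 (limma adjusted p = 0.0346). The sum of the 3 sestrins was 30.9 to 34.7 FPKM in fed and 44.2 to 46.8 FPKM in fasted libraries, without overlap. The makeup of that sum overlapped between the groups, with Sesn1 at 46.0% to 55.8% in fed and 51.9% to 64.0% in fasted libraries and Sesn2 at 7.25% to 9.82% and 7.79% to 8.22%.

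**Figure D2:**
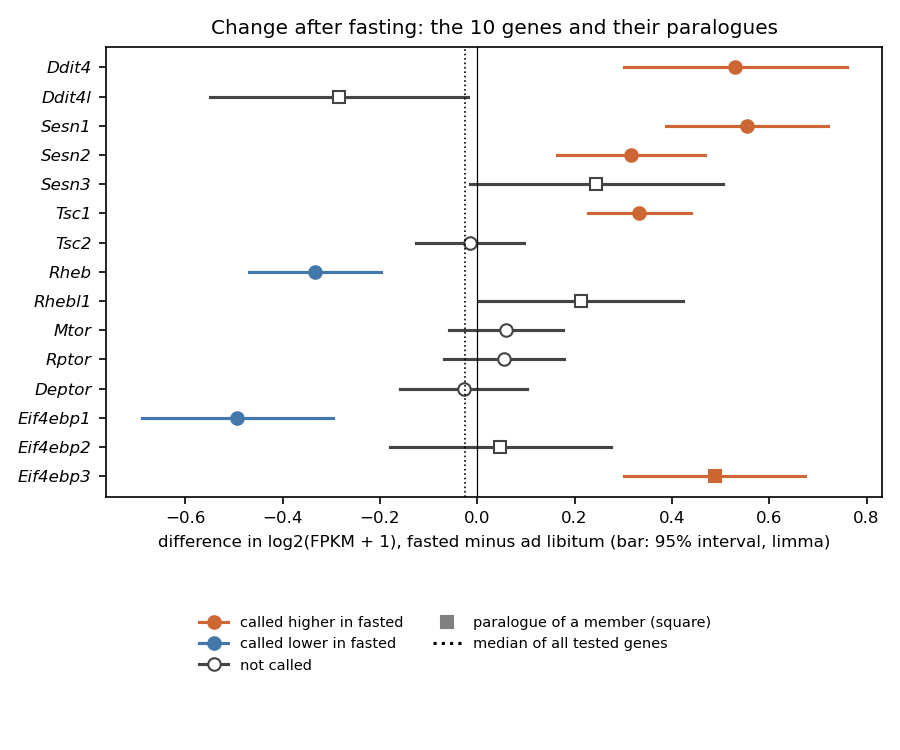
Difference in log2(FPKM + 1), fasted minus ad libitum (x axis), for the 10 genes (circles) and 5 paralogues (squares), with 95% intervals from limma. Ddit4, Sesn1, Sesn2, Tsc1 and the paralogue Eif4ebp3 were called higher, Rheb and Eif4ebp1 lower, and open symbols were not called.

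Of the tuberous sclerosis complex, Tsc1 rose and Tsc2 was not called. Tsc1 lies on chromosome 2 at 28641228 to 28691167 (plus strand) and encodes hamartin, which stabilises the complex. It stood at 9.54, 9.79, 9.79 and 9.62 FPKM in fed and 12.2, 12.4, 13.2 and 12.1 FPKM in fasted cortex. The fed libraries lay close together (SD 0.122 FPKM, n = 4) and all under the fasted ones. The mean rose by 28.7%, a log2 change of 0.33 (SE 0.0483, 95% interval 0.23 to 0.44, limma adjusted p = 0.000874).

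Tsc2 lies on chromosome 17 at 24595816 to 24632630 (minus strand) and encodes tuberin, the subunit that inactivates Rheb by speeding its GTP hydrolysis. It stood at 16.2, 17.2, 16.5 and 16.5 FPKM in fed and 17.2, 17.1, 15.7 and 15.7 FPKM in fasted cortex. The groups overlapped throughout, and the log2 change of -0.02 had a 95% interval of -0.13 to 0.10 (limma adjusted p = 0.851). Exons of Tsc2 overlap those of Pkd1 on the opposite strand, and whether the libraries keep strand is not given in the sources used here, so reads of the shared stretch cannot be told apart. Pkd1 was at 6.84 to 7.14 FPKM in fed and 9.47 to 11.1 FPKM in fasted libraries. The partner subunit gene Tbc1d7 was at 7.57 ± 0.188 and 7.99 ± 0.92 FPKM (SD, n = 4 each), and its log2 change of 0.06 was not called (limma adjusted p = 0.559).

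Within a library the ratio of Tsc1 to Tsc2 was 0.587, 0.569, 0.595 and 0.581 in fed and 0.711, 0.725, 0.837 and 0.768 in fasted cortex. Such ratios do not depend on scaling by a single factor per library, though quantile scaling can change them. The ratio of Tsc1 to Tsc2 was higher in every fasted library, with the limit given above for the exons Tsc2 shares with Pkd1.

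Rheb lies on chromosome 5 at 24802823 to 24842624 (minus strand) and encodes the GTPase that activates mTORC1. It stood at 42.1, 39.2, 41.0 and 37.7 FPKM in fed and 34.1, 28.9, 32.8 and 30.5 FPKM in fasted cortex. It was the most abundant of the 10 genes in both groups, and every fasted library was under every fed one. The mean fell by 21.1%, a log2 change of -0.33 (SE 0.0618, 95% interval -0.47 to -0.20, limma adjusted p = 0.00309). With equal-sum scaling of the libraries the change was -0.21 and the call ended (limma adjusted p = 0.159). The FPKM of a library, over all rows, summed to 254086 to 640017, the most in ad libitum replicate 2. There 2 microRNA rows are listed at 40326 and 37302 FPKM, only a part of that sum, and at 0 in all other libraries. Another microRNA row, Mir6363, is listed at 32387 FPKM in ad libitum replicate 3 and at 0 in all other libraries. With the 10 most abundant genes left out of the sums the change was -0.31 (limma adjusted p = 0.000897), an alternative chosen after seeing the data.

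Its close relative Rhebl1, which can also activate mTORC1, was at 1.98, 1.48, 1.74 and 1.37 FPKM in fed and 2.41, 2.13, 2.08 and 1.64 FPKM in fasted cortex. The groups overlapped and its log2 change of 0.21 was not called (limma adjusted p = 0.124), but it was in the blocked fit (limma adjusted p = 0.034). Rheb made up 95.5% to 96.5% of the summed FPKM of the pair in fed and 93.1% to 94.9% in fasted libraries. The ratio of Rheb to Tsc1 was 3.92 to 4.42 in fed and 2.33 to 2.80 in fasted libraries. As Rheb fell and Tsc1 rose without overlap, their ratio had to part the groups and adds no separate result.

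**Figure D3:**
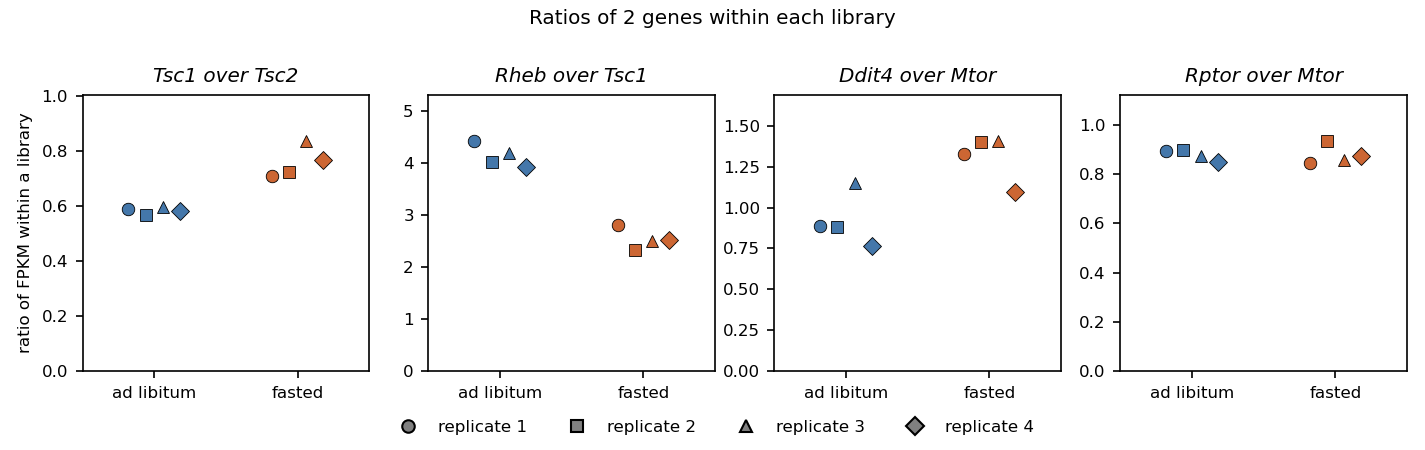
Ratio of the FPKM of 2 genes within each library (y axis), by group, with 1 symbol per replicate number. Tsc1 over Tsc2 was higher and Rheb over Tsc1 lower in every fasted library, Ddit4 over Mtor overlapped through ad libitum replicate 3 (1.15) and fasted replicate 4 (1.09), and Rptor over Mtor overlapped throughout.

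The subunits of the kinase complex showed no called change. Mtor, on chromosome 4 at 148448611 to 148557683 (plus strand), encodes the kinase itself. It stood at 9.84, 10.8, 9.67 and 10.5 FPKM in fed and 11.2, 10.5, 10.6 and 10.3 FPKM in fasted cortex, with overlapping groups. Its log2 change was 0.06 with a 95% interval of -0.06 to 0.18 (limma adjusted p = 0.446), so that a change of the size seen for Tsc1 lies outside the interval.

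Rptor, on chromosome 11 at 119602905 to 119899576 (plus strand), encodes raptor, the subunit that recruits substrates. It stood at 8.81, 9.71, 8.46 and 8.89 FPKM in fed and 9.48, 9.82, 9.07 and 9.01 FPKM in fasted cortex. The fasted library was the higher in each of the 4 same-numbered pairs, but the groups overlapped and the log2 change of 0.05 (95% interval -0.07 to 0.18) was not called (limma adjusted p = 0.503, and 0.399 in the blocked fit). Within a library Rptor stood at 0.850 to 0.900 of the level of Mtor in fed and 0.845 to 0.935 in fasted cortex.

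Deptor, on chromosome 15 at 55112317 to 55259271 (plus strand), encodes an inhibitor that binds the kinase directly. It stood at 3.58, 4.14, 3.87 and 3.98 FPKM in fed and 3.86, 3.65, 3.98 and 3.69 FPKM in fasted cortex. The groups overlapped, with a log2 change of -0.03 and a 95% interval of -0.16 to 0.10 (limma adjusted p = 0.758). That interval ends under those of Ddit4, Sesn1 and Sesn2, which began at 0.30, 0.39 and 0.16, and the difference itself was not tested. Exons of Rptor and Deptor overlap those of antisense or opposite-strand transcripts (Rptoros and Gm9920), which were listed at 0 to 0.162 and 0 to 0.0696 FPKM.

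Among the other subunits and assembly factors of mTORC1, 0 of 5 tested genes were called by limma, against 25.8% of all tested genes. Of the 5, 1 had an unadjusted limma p under 0.05 (Akt1s1). Mlst8, which encodes the subunit shared by both complexes of the kinase and was named after its values were seen, was at 6.02 ± 0.461 and 6.01 ± 0.653 FPKM (SD, n = 4 each; limma adjusted p = 0.975). Akt1s1, which encodes the inhibitory subunit PRAS40, was at 16.7 ± 1.51 and 14.8 ± 0.171 FPKM (SD, n = 4 each). The log2 change of -0.15 for Akt1s1 was not called (limma adjusted p = 0.0893) and was called in the blocked fit (limma adjusted p = 0.0429) and without ad libitum replicate 4 (limma adjusted p = 0.0433).

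Eif4ebp1 lies on chromosome 8 at 27260329 to 27276674 (plus strand) and encodes 4E-BP1, a repressor of cap-dependent translation that mTORC1 phosphorylates and so releases from the cap-binding protein eIF4E. It stood at 3.23, 2.69, 3.003 and 2.48 FPKM in fed and 2.09, 1.84, 1.59 and 1.44 FPKM in fasted cortex. Every fasted library was under every fed one. The mean fell by 39.0%, from 2.85 ± 0.330 to 1.74 ± 0.285 FPKM (SD, n = 4 each), a log2 change of -0.49 (SE 0.0895, 95% interval -0.69 to -0.30, limma adjusted p = 0.00275). It was the least abundant of the 10 genes in fasted cortex, at an estimated 58 to 123 fragments per library on its coding transcript of 1997 bases, where the counting error alone is up to 13.1%. The transcript length the authors used is not given in the sources used here.

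The paralogue Eif4ebp3, which encodes the repressor 4E-BP3, moved the opposite way. It stood at 2.42, 2.51, 3.19 and 2.37 FPKM in fed and 4.16, 4.61, 3.77 and 3.76 FPKM in fasted cortex, a log2 change of 0.49 (SE 0.0848, limma adjusted p = 0.00222) without overlap. Eif4ebp2, the form known to predominate in brain, was at 8.92 ± 1.41 and 9.22 ± 1.10 FPKM (SD, n = 4 each) and was not called (log2 change 0.05, 95% interval -0.18 to 0.28, limma adjusted p = 0.766). It made up 56.6% to 69.0% of the summed FPKM of the 3 genes in fed and 55.8% to 66.0% in fasted libraries. Eif4ebp1 went from 15.9% to 24.8% of the sum in fed libraries to 9.44% to 14.8% in fasted ones, and Eif4ebp3 from 15.2% to 21.4% to 24.6% to 29.4%. The sum was 13.0 to 15.7 FPKM in fed and 14.1 to 16.6 FPKM in fasted libraries and overlapped.

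**Figure D4:**
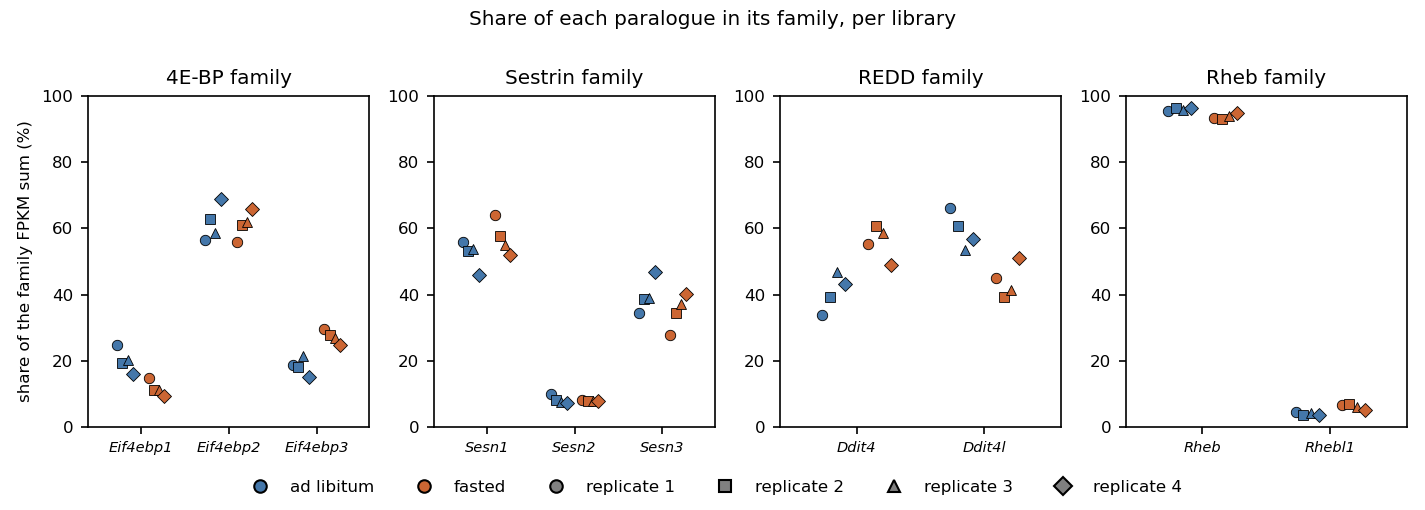
Share of each paralogue in the summed FPKM of its family (y axis, percent) in each library, fed in blue and fasted in orange, with 1 symbol per replicate number. In the 4E-BP family the shares of Eif4ebp1 and Eif4ebp3 parted the groups in opposite directions while that of Eif4ebp2 and those of the sestrins overlapped.

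By level, FPKM being per length of transcript, the fed order was Rheb, Sesn1, Tsc2, Mtor, Tsc1, Ddit4, Rptor, Deptor, Eif4ebp1 and Sesn2. Neighbours whose fed ranges overlapped were Sesn1 with Tsc2, Mtor with Tsc1, Tsc1 with Ddit4, Ddit4 with Rptor, and Eif4ebp1 with Sesn2. In fasted cortex the lowest Rheb library (28.9 FPKM) was under the highest Sesn1 library (29.9 FPKM). Ddit4 and Tsc1 stood above Mtor there, at means of 13.9 and 12.5 against 10.7 FPKM, with Ddit4 and Tsc1 overlapping each other. Sesn2 and Deptor overlapped in fasted cortex too, and Eif4ebp1 lay under all other genes.

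Sesn1 and Ddit4, which had the largest absolute log2 changes with a pseudocount of 1, were compared with all other tested genes outside the pathway lists, by the root mean square distance of their log2 profiles from the fed mean over the 8 libraries. Nearest to Sesn1 were Nfkbia, which encodes the NF-kappaB inhibitor known as a glucocorticoid target (distance 0.033, 6.36 to 9.79 FPKM), Kirrel2 (0.047) and Scrg1 (0.055). Nearest to Ddit4 were Rhou (0.113), Dgat2 (0.116), which encodes an enzyme of triglyceride synthesis, and Orc6 (0.120). With a pseudocount of 0.5 or 0.1 the change of Eif4ebp1 was the largest of the 10, at -0.59 or -0.69 against 0.57 or 0.58 for Sesn1. The distance measures likeness over these libraries and nothing else.

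In the rest of the pathway 72 genes were found in the table, 70 of them passed the filter, and 14 rose and 6 fell. That is 28.6% called, against 25.8% of all tested genes, with 20% higher and 8.57% lower against 9.56% and 16.3%. The median log2 change was 0.02. These lists too were chosen with earlier results of these data known. In the blocked fit 19 rose and 11 fell. Leaving out 1 library at a time, the number that fell was 10 without ad libitum replicate 4, 2 without fasted replicate 4 and 3 without fasted replicate 3 or ad libitum replicate 1, 2 or 3, and the number that rose was 9 without fasted replicate 1.

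In the longest list, labelled mTORC1 targets, 7 of 17 genes rose and 1 fell. That is 47.1% called, against 25.8% of all tested genes, with a median log2 change of 0.11. The list is wider than direct substrates of the kinase and also holds translation factors such as Eif4e. Eef2k, which encodes the kinase that brakes translation elongation, rose by 0.41 (log2), from 5.79 ± 0.330 to 8.05 ± 0.462 FPKM (SD, n = 4 each; limma adjusted p = 0.00085). Pdcd4, which encodes an inhibitor of the helicase eIF4A, rose by 0.27 (limma adjusted p = 0.00213), from 29.5 to 35.8 FPKM. Beside these and Eif4ebp3, Eif4b, Atg13, Lpin1 and Maf1, named after their values were seen, rose by 0.26, 0.18, 0.25 and 0.31. Of these, Atg13 was not called without ad libitum replicate 3 (limma adjusted p = 0.0552), nor was Maf1 without fasted replicate 1 or 2 (limma adjusted p from 0.0584 to 0.066). The only one that fell was Eif4e, also named after its values were seen, with a log2 change of -0.17 (limma adjusted p = 0.0387), a call lost without any 1 of 7 libraries (limma adjusted p from 0.0527 to 0.117) and stood without ad libitum replicate 4. It was also lost with no filter on low values (limma adjusted p = 0.0541), with plain moderation (limma adjusted p = 0.0504) and with equal-sum scaling (limma adjusted p = 0.788). Several of these proteins restrain translation (Eef2k, Pdcd4 and Eif4ebp3) while Eif4b encodes an initiation factor. Eif4ebp1, which also encodes a repressor of translation, fell as given above, and 9 of the 17 genes in the list were not called. Whether translation changed was not tested.

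Of the 5 tested genes for amino acid sensors and folliculin partners 3 rose (median log2 change 0.22). That is 60% called, against 25.8% of all tested genes. Fnip1 and Fnip2, which encode the partners of folliculin, rose by 0.21 and 0.24 (limma adjusted p = 0.0249 and 0.0138). Gatsl2, the symbol in the table for the arginine sensor family gene Castor2, rose by 0.22 (limma adjusted p = 0.0265). Gatsl3, also in this list, was under the filter and not tested, at 0.455 to 0.740 FPKM in fed and 0.746 to 1.44 FPKM in fasted libraries. The call of Fnip1 ended on leaving out fasted replicate 1 or 3 or ad libitum replicate 2 or 3 (limma adjusted p from 0.064 to 0.0758), and that of Gatsl2 on leaving out fasted replicate 1 or 4 or ad libitum replicate 1 or 3 (limma adjusted p from 0.0644 to 0.0868). Flcn itself, named after its values were seen, was at 8.22 ± 0.206 and 9.22 ± 0.550 FPKM (SD, n = 4 each; limma adjusted p = 0.0673, and 0.0197 with median-ratio scaling).

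Rag GTPases and the Ragulator bring mTORC1 to the lysosome, and of their 10 genes 1 rose and 1 fell (20% called, against 25.8% of all tested genes). Rragc rose by 0.20 (limma adjusted p = 0.0191), a call lost on leaving out fasted replicate 1 or ad libitum replicate 2 (limma adjusted p = 0.0521 and 0.0511). The Ragulator gene Lamtor5 had a log2 change of -0.36 (limma adjusted p = 0.0313, and 0.000607 in the blocked fit), a call lost on leaving out fasted replicate 3 or 4 or ad libitum replicate 1 or 2 (limma adjusted p from 0.0761 to 0.087), with no filter on low values (limma adjusted p = 0.0621) and with equal-sum scaling (limma adjusted p = 0.112). Of 11 genes of the GATOR and KICSTOR complexes 1 rose and 1 fell (18.2% called, also against 25.8%). Seh1l, a GATOR2 gene shared with the nuclear pore, rose by 0.22 (limma adjusted p = 0.0136). The GATOR2 gene Wdr59 had a log2 change of -0.22 (limma adjusted p = 0.0262), a call lost on leaving out fasted replicate 1 or 4 or ad libitum replicate 2 or 3 (limma adjusted p from 0.0539 to 0.0777) and with equal-sum scaling (limma adjusted p = 0.494).

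The second complex of the kinase, mTORC2, had 1 gene that rose and 2 that fell of 4 (75% called, against 25.8% of all tested genes). Prr5, for an accessory subunit, went from 1.63 ± 0.327 to 2.48 ± 0.290 FPKM (SD, n = 4 each), a log2 change of 0.41 (limma adjusted p = 0.00961). Its relative Prr5l had a log2 change of -0.25 (limma adjusted p = 0.0381), a call lost without any 1 of 6 libraries, those other than ad libitum replicates 2 and 4 (limma adjusted p from 0.0601 to 0.109), with quantile scaling (limma adjusted p = 0.0647), with no filter on low values (limma adjusted p = 0.0519) and with equal-sum scaling (limma adjusted p = 0.222). Mapkap1, for the core subunit SIN1, had a log2 change of -0.26 (limma adjusted p = 0.00997, and 0.367 with equal-sum scaling). Rictor, for the defining subunit and named after its values were seen, was at 7.83 ± 0.468 and 8.79 ± 0.496 FPKM (SD, n = 4 each; limma adjusted p = 0.088, and 0.0359 without ad libitum replicate 4).

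Of 13 genes of insulin and growth factor input 1 rose and 1 fell (15.4% called, against 25.8% of all tested genes). Akt2, which encodes the AKT kinase known for insulin-stimulated glucose uptake, stood at 28.7, 25.8, 25.6 and 23.3 FPKM in fed and 16.4, 15.96, 14.2 and 15.8 FPKM in fasted cortex. The groups lay far apart, with a log2 change of -0.69 (SE 0.0679, limma adjusted p = 0.000107). Its relative Akt1, named after its values were seen, was not called (log2 change 0.08, limma adjusted p = 0.453). Pik3cb, for a catalytic subunit of phosphoinositide 3-kinase, rose by 0.16 (limma adjusted p = 0.0396), a call lost whichever library was left out (limma adjusted p from 0.0524 to 0.0986) and with equal-sum scaling (limma adjusted p = 0.0725). Among the other inhibitors 0 of 3 tested genes were called by limma (Ddit4l, Bnip3 and Grb10), against 25.8% of all tested genes. Of these, 1 had an unadjusted limma p under 0.05 (Ddit4l). Trib3, at 0 to 0.164 FPKM in all libraries, was under the filter.

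**Figure D5:**
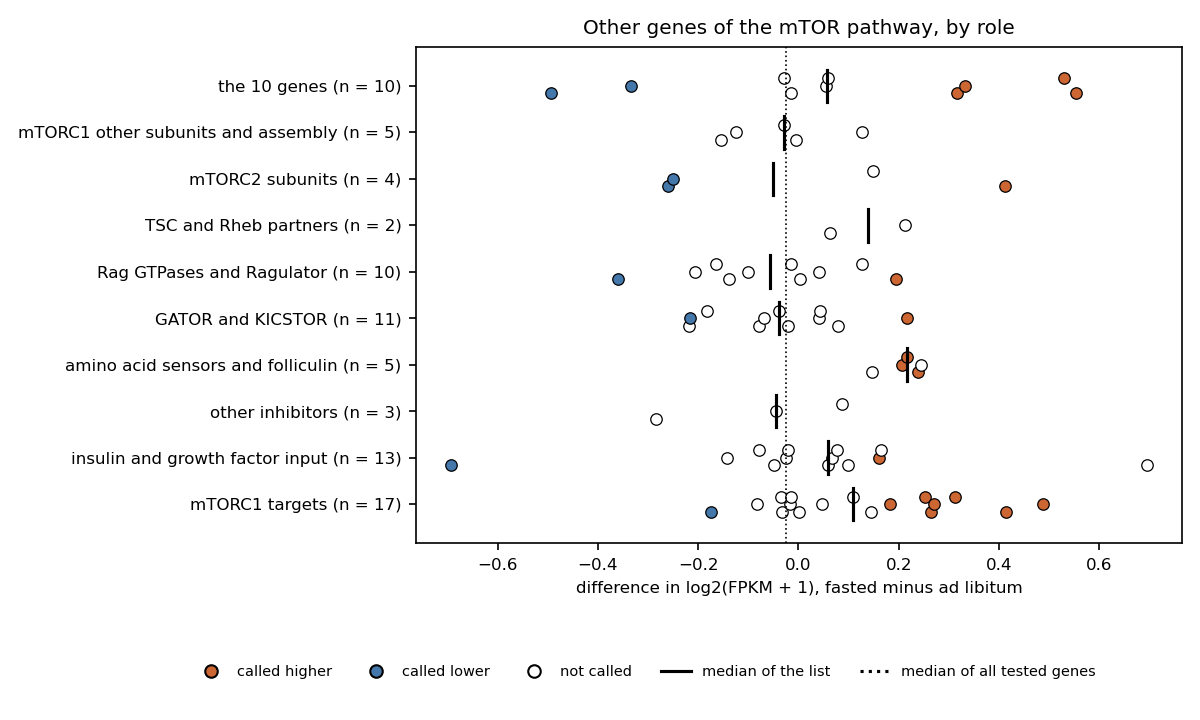
Difference in log2(FPKM + 1), fasted minus ad libitum (x axis), of each tested gene in the 10-gene list and in 9 role lists of the pathway, with list medians as bars and the median of all tested genes as a dotted line. In the list labelled mTORC1 targets 7 of 17 genes were called higher and 1 lower. The lists for mTORC1 subunits, TSC partners and other inhibitors had no called gene.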

How the data were processed

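The values are FPKM that the authors deposited, in a single table of 24883 rows and 8 library columns. TopHat and mm10 are named in the submitters' processing notes. The sources used here do not name the quantifier, the annotation, the strandedness or any scaling between libraries. The row with the highest mean was kept for each of 282 repeated symbols. Groups came from the treatment labels and replicate numbers from the titles.

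The whole table, on the log2(FPKM + 1) scale, was fitted with limma 3.58.1 (R 4.3.3), keeping genes that reached 1 FPKM in at least 4 libraries, with group as the only term, trended and robust empirical Bayes moderation and Benjamini-Hochberg adjustment over all tested genes. Steps were tested on simulated data. Tables and figures used Python 3.11.15, pandas 2.3.3 and matplotlib 3.10.9. Annotation was GENCODE M21 (GRCm38, the assembly of mm10), and promoter windows were RefSeq GRCm38.p6, which held 8 of the 10 genes (not Deptor and Eif4ebp1).

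Depth was estimated in 3488 single-transcript genes of at least 800 bases, as the densest product of FPKM and length between 0.01 and 0.2 FPKM kb, taken as 1 fragment. The search range bounds it, and counting errors cover counting only.

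Same-numbered libraries of the groups had deviations from the group mean that correlated at 0.574, 0.496, 0.382 and 0.523 across 12377 genes, all over 0.1. Replicate number was used as a block in an alternative fit only, not in the main fit, and no label states a pairing. Across all genes every pair with both numbers odd or both even correlated positively, and every odd with even pair negatively. Y-linked transcripts and Xist split the libraries the same way, save ad libitum replicate 3. The values across all genes thus cannot tell pairing by number from that split. Across 11155 autosomal coding genes, which are not independent replicates, the same-numbered values were 0.335, 0.193, 0.0761 and 0.371, not all over 0.1. Some pairs with different numbers were as high: ad libitum 1 with fasted 3 reached 0.381 across all genes, and on autosomal coding genes ad libitum 2 with fasted 1 reached 0.227, ad libitum 4 with fasted 3 reached 0.219 and ad libitum 3 with fasted 4 reached 0.103.

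The 10 genes and the pathway lists were chosen with earlier results of these data known. Genes named are the 10, their 5 paralogues and, from each role list, up to 3 called genes with the smallest p, or 1 where none was called. Another 10, said to be so in the text or in the closing section, were named after their values were seen, and the within-library ratios were chosen likewise. Alternatives were other pseudocounts, no filter, 3 scalings, a replicate block, a term for odd and even numbers, plain moderation and leaving out each library.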

Additional observations from a re-analysis of the deposited data

Results flagged for a closer look

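A library far from the other 3 of its group was looked for in 80 groups of 4 values (40 genes in 2 groups), where chance gives about 1 in 20, and 4 were found. Ddit4 was at 11.3 FPKM in fasted replicate 4 and at 14.7 to 14.9 FPKM in the other fasted libraries. Without fasted replicate 4 its log2 change was 0.62 (limma adjusted p = 0.00153). Eif4ebp3 was at 3.19 FPKM in ad libitum replicate 3 and at 2.37 to 2.51 FPKM in the other fed libraries, and its log2 change was 0.56 without that library (limma adjusted p = 0.00188). Wdr59 was at 5.002 FPKM in ad libitum replicate 2 and at 4.43 to 4.47 FPKM in the other fed libraries, and its adjusted p was 0.0777 without that library (limma). Flcn was at 10.04 FPKM in fasted replicate 1 and at 8.91 to 8.98 FPKM in the other fasted libraries.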

How the results depend on the processing

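Of the 180 pairings of the 10 genes with 18 other settings, 179 kept the direction of any called change and the side of the threshold, and the exception was Rheb under equal-sum scaling. That scaling left 1 of the 10 genes lower, 1 other pathway gene lower and 534 of all genes lower, and it shifts the median log2 change of all genes to 0.08. Without the 10 most abundant genes in the sums, which was tried after seeing the data, 1898 genes were lower and 1526 higher. Quantile scaling gave 1792 genes higher. With no filter on low values 3 other pathway genes fell, with more genes tested. The replicate block, which assumes a pairing of libraries by number that no label states, left the calls of the 10 genes unchanged. With it 11 other pathway genes fell. It added calls for Sesn3, Rhebl1, Akt1s1 and Irs2 among the 40 named genes and ended none of theirs. Leaving out 1 library gave 833 to 1193 genes higher and 1362 to 2529 lower of all genes, and 9 to 16 higher and 2 to 10 lower of the other pathway genes, with fewer samples in each fit. For the 6 called genes of the 10 the highest adjusted p (limma) on leaving out a library was 0.0279, for Sesn2. Over 40 named genes and all settings, 652 of 720 values stayed on their side of the threshold, 54 lost and 14 gained a call, and 0 changed direction among those called in either fit. The cause of the other changes was not tested. Counting error at the estimated depth was up to 13.1% for Eif4ebp1.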

Other observations

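Irs2, which encodes the insulin receptor substrate known to be induced by fasting in liver, was named after its values were seen. It stood at 4.74, 7.01, 7.92 and 13.1 FPKM in fed replicates 1 to 4 and at 11.5, 10.6, 14.6 and 16.5 FPKM in fasted ones. The groups overlapped through ad libitum replicate 4, while the fasted library was higher in each same-numbered pair. Its log2 change of 0.70 had the widest interval of those given here (0.07 to 1.32) and was not called (limma adjusted p = 0.0984). It was called in the blocked fit (limma adjusted p = 0.00778) and without ad libitum replicate 4 (limma adjusted p = 0.0142).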
